A study of Homo sapiens with 6 samples.

Results

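Chromatin bound by the TTD, the Tandem-Tudor domain of the human protein UHRF1, was examined where it lay over the 3′ ends of genes in HepG2 cells, an established hepatoblastoma line that the labels assign to liver. A peak was counted as an end peak when it contained the 3′ end of at least 1 protein-coding gene record of GENCODE release 44 and its edge lay more than 2500 bp from every protein-coding transcription start site (TSS). Of 31569 TTD peaks, 425 were end peaks (1.35%, 95% Wilson interval 1.22 to 1.48), and they held the ends of 440 genes. The ends were taken from the annotation, and no measured signal other than the position of the peaks entered the choice.

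The peaks came from CIDOP, in which a GST-tagged reading domain replaces the antibody of a ChIP experiment on native mononucleosomes released with micrococcal nuclease. The 6 libraries of untreated HepG2 cells formed 3 groups of 2 biological replicates, namely CIDOP with the TTD, ChIP for H3K9me2, and input. The authors averaged both TTD replicates before calling peaks, so the values below rest on 1 pooled list of positions and widths, with no signal height, no depth for each library and no error between replicates. Wilson intervals and the intervals of medians therefore cover counting error only, and all differences below are descriptions without a test. The list holds no expression, so the liver identity of the cells could not be checked against marker genes. The part that the number of chromosome copies in HepG2 plays in the peak list was not tested.

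UHRF1 is an E3 ubiquitin ligase that brings the maintenance methyltransferase DNMT1 to newly replicated DNA. Its TTD binds the H3 tail methylated at K9, and the study asked how methylation of K4 on the same tail alters this binding. The 3′ end of a protein-coding gene is the place where the transcript is cleaved and polyadenylated, commonly a short distance after an AATAAA hexamer in the DNA. In expressed genes, DNA methylation is usually high over the gene body up to this end, in contrast to the often unmethylated CpG-rich promoters.

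The last 30 bases before the annotated end are shown for 9 of the 10 genes with the widest end peaks, because these bases fix the position to which all distances below refer. They are written 5′ to 3′ on the gene strand from the hg38 sequence, with AATAAA, or ATTAAA where there is no AATAAA, in capitals.
SLC2A2, chr3:170996347-170996376, minus strand: gtccaaagaacaagaaattgtttcttttca
NOX3, chr6:155395368-155395397, minus strand: actgaaATTAAAatatattatgtttctcaa
SULT1E1, chr4:69841212-69841241, minus strand: gtattaaaAATAAAcaagcatttcaaatta
C8A, chr1:56918194-56918223, plus strand: aatactaaaaattgacttgagttatttcaa
ABCA6, chr17:69078702-69078731, minus strand: ttgtggaAATAAAactatataaacttagaa
AKR1C8, chr10:5153920-5153949, minus strand: ttttagaaaAATAAAaaatacaaaaaaaga
SMIM36, chr17:55449856-55449885, minus strand: ccaAATAAAcccgcataatattttcaggta
MAN1A1, chr6:119177205-119177234, minus strand: tattgtgAATAAAgtcttttaatatatctc
DPT, chr1:168695468-168695497, minus strand: caaaagaAATAAAaatattaacgttcacta
No hexamer stood within these 30 bases of SLC2A2 and C8A. Over all 440 ends, AATAAA on the gene strand occurred within the last 40 bases of 264 genes (60.0%), against 57.3% of 20033 protein-coding genes. ATTAAA without AATAAA occurred in 12.5% of the 440 genes and in 12.9% of all protein-coding genes. The annotated ends under TTD peaks therefore carried the hexamers about as often as annotated ends in general.

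The first bases beyond the end are shown for 2 genes whose peak continued there over sequence free of annotated exons, with CG dinucleotides in capitals. BAAT had the widest peak, and CAMK4 had the lowest CpG observed/expected ratio of the whole peak, 0.0491, among the 359 ends with 300 such bases.
BAAT, chr9:101353882-101354181, minus strand: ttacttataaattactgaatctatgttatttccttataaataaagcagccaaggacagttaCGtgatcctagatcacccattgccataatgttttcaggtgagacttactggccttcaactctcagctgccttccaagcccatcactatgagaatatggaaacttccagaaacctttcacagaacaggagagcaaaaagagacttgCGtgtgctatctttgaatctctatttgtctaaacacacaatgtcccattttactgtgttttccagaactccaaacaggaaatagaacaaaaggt
CAMK4, chr5:111494887-111495186, plus strand: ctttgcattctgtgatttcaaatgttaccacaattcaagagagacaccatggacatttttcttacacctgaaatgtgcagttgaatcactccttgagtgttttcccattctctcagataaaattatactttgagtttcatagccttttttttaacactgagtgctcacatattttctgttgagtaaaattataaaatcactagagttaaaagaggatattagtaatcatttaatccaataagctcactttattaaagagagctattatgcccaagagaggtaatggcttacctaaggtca
These stretches held 2 CG dinucleotides at BAAT and 0 at CAMK4, which was chosen for its low ratio. They are not typical of the end peaks, whose median was 9.64 CG dinucleotides per kb.

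TTD peaks covered the ends of genes about as often as the genome as a whole. Of 20033 protein-coding gene ends, 611 lay in any TTD peak (3.05%, interval 2.82 to 3.30) and 440 in an end peak as defined here (2.20%, interval 2.00 to 2.41). TTD peaks covered 3.02% of the nuclear chromosomes of hg38, and 2.94% of protein-coding TSSs lay in a peak. A further 155 peaks held an end but came within 2500 bp of a TSS.

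The cover did not form a local maximum or minimum at the gene end as it did at the TSS. Among 14901 genes of at least 10000 bp, 2.54% (interval 2.30 to 2.80) were covered 5000 bp before the end, 3.11% (2.84 to 3.40) at the end, and 4.39% (4.07 to 4.73) 4000 bp beyond it. At 10000 bp beyond the end the cover was 3.98% (3.68 to 4.31). The cover thus stepped up across the end from the gene to the flank. At the TSS of the same genes the cover was 8.50% (8.07 to 8.96) at 1000 bp upstream, 3.04% (2.78 to 3.33) at the start itself, 2.65% at 400 bp and 6.25% (5.88 to 6.65) at 3000 bp inside the gene.

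**Figure D1:**
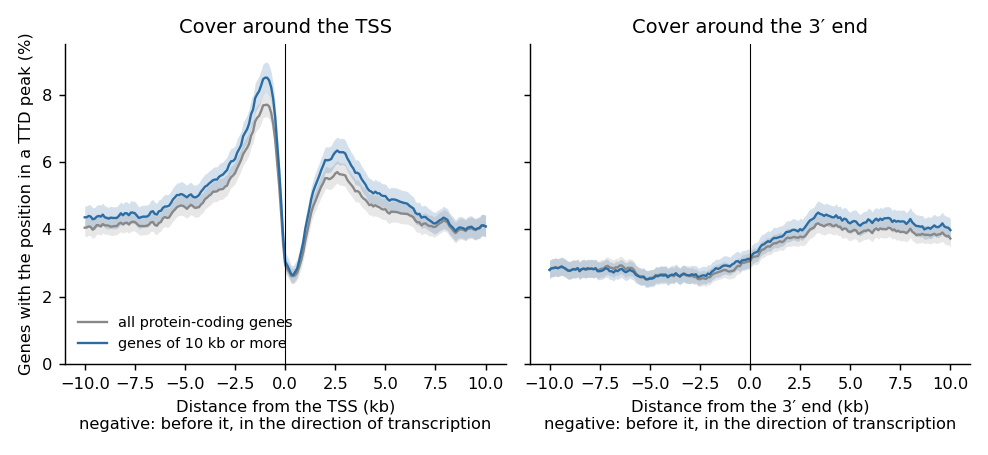
Percent of protein-coding genes with the position in a TTD peak, at distances up to 10000 bp before (negative) and beyond the TSS (left) or the 3′ end (right), with 95% Wilson intervals as bands; grey, all 20033 protein-coding genes as far as they reach, and blue, 14901 genes of at least 10000 bp. The right curve rises gradually from 2.54% at 5000 bp before the end to 4.39% at 4000 bp beyond it. The left curve falls to 3.04% at the TSS and 2.65% at 400 bp inside the gene, between 2 flanking maxima.

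The end peaks had a larger median width than the other TTD peaks, a difference bound to the rule. Their median width was 3350 bp (interval of the median 3080 to 3540), their quartiles were 2110 and 5570 bp, and their range ran from 590 bp at CETN3 to 27870 bp at BAAT. The 14209 peaks inside protein-coding genes without an end had a median width of 2220 bp, the 13594 peaks outside these genes 2340 bp, and the 3341 peaks within 2500 bp of a TSS 1910 bp. A wider peak holds more positions that can be an end, and over all 31569 peaks the peak around the median covered base was 3840 bp wide, more than the median of the end peaks. The larger width is thus not a finding about gene ends. Among peaks of 10000 bp or more, 34 of 726 (4.68%) were end peaks, and among peaks under 1000 bp, 14 of 4325 (0.324%). Counted per covered Mb, the order was not kept, with 3.28 end peaks in the widest class and 4.55 in the narrowest.

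**Figure D2:**
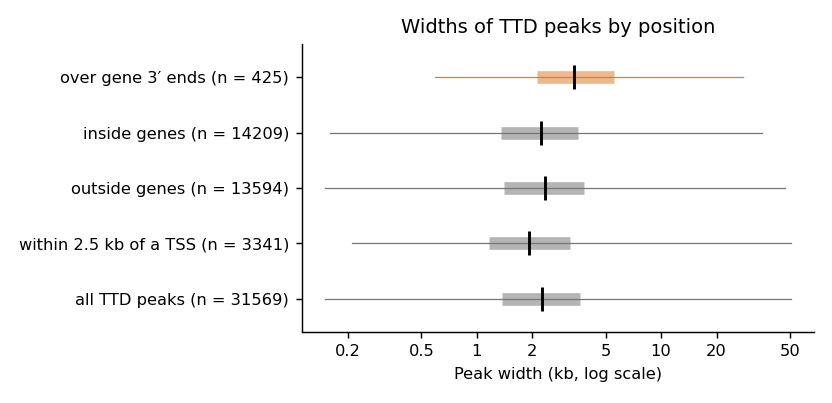
Widths of TTD peaks in kb on a log scale, for the 425 end peaks (orange) and the other classes of peaks (grey); thin lines show the range, bars the quartiles and ticks the median. The median of the end peaks, 3350 bp, lies to the right of the 2250 bp of all peaks.

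The peaks lay across the ends with slightly more of their length beyond the gene than within it. The median share of a peak on the gene side was 43.6% (39.2 to 47.5), and in 188 of 440 cases (42.7%) more than 50% of the peak lay on the gene side. The median extent was 1314 bp into the gene and 1639 bp beyond its end. A total of 374 ends (85.0%) lay at least 250 bp from both edges of the peak, and 174 (39.5%) at least 1000 bp. Peaks reached 5000 bp or more beyond the end at 55 genes and 5000 bp or more into the gene at 30 genes.

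**Figure D3:**
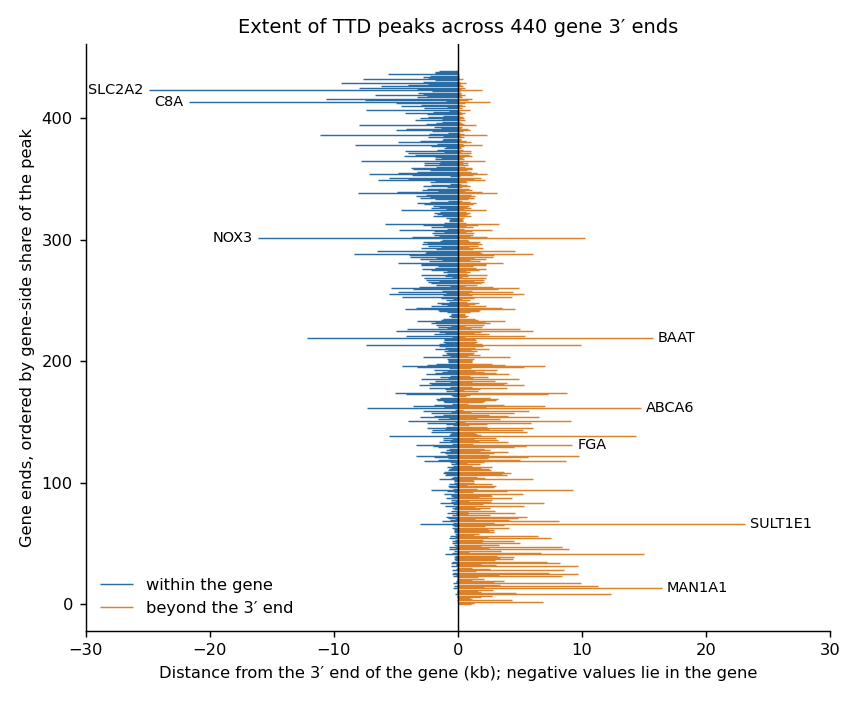
Extent of the TTD peak across each of the 440 gene ends (horizontal lines) in kb from the end, blue within the gene and orange beyond it, ordered by the share of the peak on the gene side. Most lines are short on both sides, and single genes such as SLC2A2 (24904 bp into the gene) and SULT1E1 (23111 bp beyond the end) stand out on one side.

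Coding sequence made up a small part of the bases in end peaks, although 203 of the 425 (47.8%, 43.1 to 52.5) contained some. Of the 1.95 Mb in end peaks, 2.99% were coding bases, 23.0% other exonic bases, 26.2% introns and 47.8% lay outside protein-coding genes. The peak contained the stop codon of the canonical transcript in 163 genes (37.0%, 32.7 to 41.7) and its whole last exon in 143 (32.5%). It touched 2 or more canonical exons in 60 genes (13.6%). The end of the canonical transcript lay in the same peak in 378 genes (85.9%), and in the other genes the end of the gene record came from another transcript.

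The genes with an end peak had a median length of 38234 bp (31368 to 44643), against 27471 bp for all protein-coding genes, and 14 of the 440 were under 5000 bp. The median was 35460 bp for all 17253 protein-coding genes of 5000 bp or more. Compared with the latter, canonical transcripts of the 440 genes had a median of 8 exons against 9. Their last exon had a median of 1766 bp (1591 to 2039) against 1558 bp. The next gene lay in tandem in 197 cases (44.8%) and converged on the end in 176 of the 440 genes, while 66 ends (15.0%) lay inside another protein-coding gene. In genes of 5000 bp or more these shares were 42.3%, 34.1% and 23.5%. Ends inside another gene were thus a smaller share here than in genes of 5000 bp or more, which were not held to the distance from every TSS.

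In base composition the end peaks lay between the peaks inside genes and those near a TSS. Their median GC content was 44.1% (43.4 to 44.7), against 42.4% in the other gene-body peaks, 43.8% outside genes and 44.2% near a TSS. The median CpG observed/expected ratio, the number of CG dinucleotides relative to that given by the C and G content, was 0.196 (0.187 to 0.205), against 0.191 and 0.187 in the first 2 of these classes and 0.234 near a TSS. End peaks had a median of 9.64 CG dinucleotides per kb (9.07 to 10.2), against 8.43 in the other gene-body peaks, 8.77 outside genes and 11.4 near a TSS. A lncRNA TSS lay in 29 end peaks (6.82%, 4.79 to 9.63) and in 807 of the 31144 other peaks (2.59%). Per Mb of peak, which takes the width into account, there were 15.9 lncRNA TSSs in end peaks and 9.16 in other peaks.

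The widest end peak lay over the end of BAAT, the enzyme that conjugates bile acids to glycine or taurine. This peak, at chr9:101338451-101366320 and 27870 bp wide, held 12139 bp of the gene and 15731 bp beyond its end, and its nearer edge was 12138 bp from the end, the largest such distance at any gene. With 3 further peaks, 88.2% of the 31219 bp of BAAT lay in TTD peaks. The canonical transcript ends 6235 bp from the end of the gene record, still in the same peak.

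The peak of SLC2A2, the low-affinity glucose transporter of hepatocytes (GLUT2), lay mostly on the gene side. It measured 26890 bp (chr3:170994361-171021250), held 24904 bp of the gene with 10 of its 11 canonical exons touched, and stopped 5493 bp short of the TSS. Together with a second peak it covered 91.4% of the gene. C8A, the alpha chain of complement component C8, showed the same arrangement with 21683 bp inside the gene and 2597 bp beyond, in a peak of 24280 bp (chr1:56896541-56920820). The converging C8B gene, the beta chain of the same component, ended 10983 bp away.

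SULT1E1, the estrogen sulfotransferase, had the peak that reached farthest beyond an end. Of its 26150 bp (chr4:69818101-69844250), 3039 bp lay in SULT1E1 and 23111 bp beyond, a stretch that GENCODE assigns to the intron of an unnamed read-through record, ENSG00000284695. MAN1A1, a Golgi mannosidase, followed with 16464 bp beyond the end and only 406 bp in the gene (chr6:119160741-119177610). DPT, the matrix protein dermatopontin, had 15047 bp beyond and 1013 bp in the gene (chr1:168680421-168696480). Thus some of the widest peaks touched no more than the last exon.

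ABCA6, a lipid-transporter family member, had a peak of 22090 bp (chr17:69063911-69086000) that reached 14791 bp beyond its end and stopped 2962 bp from the TSS of the next gene, ABCA9. NOX3, an NADPH oxidase of the inner ear, had 26340 bp (chr6:155385131-155411470), with 16103 bp in the gene and 61.0% of the gene in TTD peaks. The remaining peaks among the 10 widest lay over AKR1C8 (19950 bp, chr10:5139541-5159490), an aldo-keto reductase family record, and SMIM36 (17300 bp, chr17:55439941-55457240). CCL20, a chemokine, completed the 5 ends lying deepest in their peak, at 6076 bp from the nearer edge, after BAAT, NOX3, SMIM36 (7384 bp) and ABCA6 (7298 bp).

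In 14 of the 425 end peaks (3.29%, 1.97 to 5.45) more than 1 gene ended. The widest of them, 8780 bp, held the ends of C1orf210 and TMEM125. Peaks of 5480 bp over CIT and PRKAB1 and of 5300 bp over SCTR and TMEM37 followed. CIT encodes citron kinase, PRKAB1 a regulatory subunit of AMP-activated kinase and SCTR the secretin receptor. In both cases the genes converged, with gaps of 4166 and 1338 bp between the ends. A peak of 5180 bp held CDRT4 and the read-through record TVP23C-CDRT4, and 1 of 4370 bp held FRMD7 and STK26, which also converged. Leaving out read-through and unnamed records, the share was 2.38%. The peak with 3 ends, 3590 bp, held ACO1, which encodes cytosolic aconitase, RIGI, the RNA sensor RIG-I, and an unnamed record.

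Genes with an end peak also carried TTD peaks elsewhere. A TTD peak lay within 2500 bp of the TSS of 133 of the 440 genes (30.2%, 26.1 to 34.7), against 17.5% (16.9 to 18.1) of the 16726 genes of 5000 bp or more without a peak at the end. All genes without a peak at the end, also those under 5000 bp, were then weighted to the chromosomes and length classes of the 440 genes, which gave 19.6%. Against these genes of any length, unweighted, the share was higher with an end peak in 20 of 23 chromosomes. By gene length the shares were 30.9% against 11.3% from 2500 to 10000 bp, 34.6% against 17.4% up to 30000 bp, 31.7% against 20.3% up to 100000 bp, and 22.4% against 16.5% above. The intervals overlapped in the longest class, 15.6 to 31.2 with and 15.3 to 17.7 without an end peak.

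**Figure D4:**
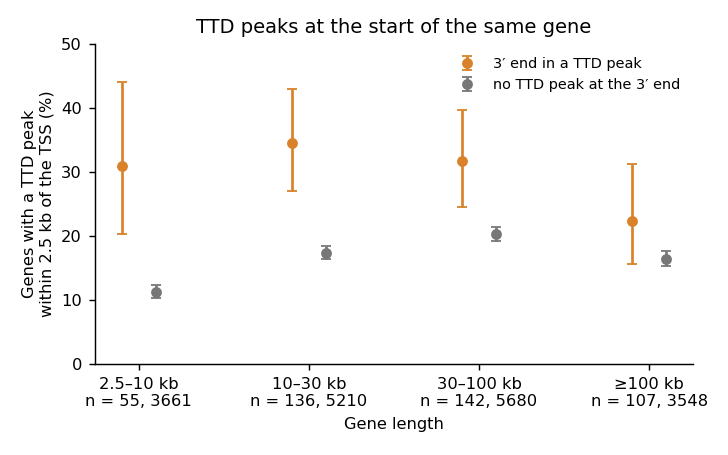
Percent of genes with a TTD peak within 2500 bp of their TSS in 4 classes of gene length, with 95% Wilson intervals; orange, the 440 genes with an end peak, and grey, genes without a TTD peak at the 3′ end. The orange points lie above the grey ones in each class, from 30.9% against 11.3% in the shortest to 22.4% against 16.5% in the longest.

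A TTD peak other than the end peak lay in 283 of the 440 genes (64.3%, 59.7 to 68.7). Of the genes of 5000 bp or more without a peak at the end, 36.9% held a TTD peak. Both shares rose with gene length. They were 29.1% against 6.75% from 2500 to 10000 bp and 51.5% against 19.1% up to 30000 bp. In longer genes they were 67.6% against 42.2% up to 100000 bp, and 94.4% against 72.6% above. The median cover of the 440 genes was 10.4% of their length, with quartiles of 4.18 and 23.1%. At least 50% of the gene was in peaks for 33 genes (7.50%), against 0.824% of all protein-coding genes, a difference to which the end peak itself contributes. The highest cover, 93.3%, was that of TECTB, a tectorin of the inner ear, with a peak of 13510 bp at the end. At the other extreme, 157 genes (35.7%) had no TTD peak but the one at the end. The most peaks were found in long genes, with 54 in LRMDA, 30 each in BCAS3 and MIPOL1, 26 in STXBP6 and 25 in FTO, the RNA demethylase. LRMDA is 1128545 bp long, and its end peak measured 3250 bp.

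A minority of end peaks had another end peak nearby. There were 21 pairs of neighbouring end peaks at most 50000 bp apart, formed by 39 of the 425 end peaks (9.18%, 6.79 to 12.3). On chromosome 9, a peak of 8980 bp over the end of PLPPR1 lay 4780 bp from that of BAAT, and a peak of 4830 bp over ZNF189 lay 42540 bp on the other side. On chromosome 14, SERPINA11 and SERPINA9, both of the alpha-1-antitrypsin cluster, had peaks of 6990 and 6410 bp separated by 15270 bp. On chromosome 6, GSTA1 and GSTA2, which encode alpha-class glutathione transferases, had peaks of 13860 and 5500 bp at a distance of 28140 bp. KRT39 and KRT23 on chromosome 17 had peaks of 13120 and 4370 bp, 22900 bp apart. These pairs were chosen after their values were seen.

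Over 10 lists of genes with roles in hepatocytes, 33 of 410 genes (8.05%, 5.79 to 11.1) had their end in an end peak, against 2.07% (1.88 to 2.28) of the 19623 other protein-coding genes and 2.20% of all. The bodies of the listed genes were covered more as well, with 10.7% of their summed length in TTD peaks and 10.7% of their ends in any peak, whereas all protein-coding genes had 3.55% and 3.05%. Single lists differed in both directions, from 16.8% of the bases and 8.75% of the ends in drug metabolism to 10.6% and 17.2% in complement. A TTD peak lay within 2500 bp of the TSS of 39.5% of the listed genes, against 16.9% of all protein-coding genes.

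The end peaks at the 33 listed genes had a median width of 5570 bp (3390 to 11030), against 3280 bp (3040 to 3470) at the other 407. They held the stop codon in 24 of 33 genes, against 34.2% of the others, and 18 of the 33 genes had a TTD peak at the TSS, against 28.3%. The median cover was 33.0% (19.3 to 44.4) of the gene against 9.61% (8.28 to 11.4). The listed genes were also shorter, with a median of 23704 bp (17839 to 50646) against 39240 bp (33846 to 45732). The part of gene length in the difference in cover was not tested. The peaks ranged from 1740 bp at ABCC6 to 27870 bp at BAAT.

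The lists of plasma carrier, inhibitor and acute-phase proteins, of coagulation and of complement held 9 of the 33. Among carrier, inhibitor and acute-phase proteins, 4 of 42 genes had an end peak: SERPINA11 (6990 bp), ITIH3 (3260 bp), which encodes a heavy chain of inter-alpha-trypsin inhibitor, HPR (1900 bp), related to haptoglobin, and ORM2 (1880 bp), an acid glycoprotein. In the coagulation list it was 2 of 22, FGA and KNG1, and in the complement list 3 of 29, C8A, C4A (4830 bp) and the protease C1S (3320 bp). The peak of FGA, the fibrinogen alpha chain, measured 12580 bp (chr4:154573891-154586470) and covered 3345 bp of the gene and 9235 bp beyond it towards the converging FGB. The peak of KNG1, which encodes kininogen, measured 3830 bp and held 750 bp of the gene. C4A, HPR, ORM2 and the GSTA genes have close copies nearby, and how reads matching several copies were treated is not given in the sources used here.

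Enzymes of drug metabolism accounted for 7 of 80 genes, the widest peaks lying over SULT1E1, GSTA1 (13860 bp), ADH6 (11030 bp), an alcohol dehydrogenase, and AKR1C4 (9330 bp), a hydroxysteroid dehydrogenase. In bile acid synthesis and transport the count was 2 of 19, BAAT and the steroid 5-beta-reductase AKR1D1 (7060 bp). In amino acid, urea and one-carbon metabolism it was 3 of 45, with histidase HAL (8050 bp), aspartate transaminase GOT1 (3300 bp) and methionine adenosyltransferase MAT1A (2730 bp). The peak over GOT1 also held the end of CNNM1. Glucose and glycogen metabolism gave 2 of 27, SLC2A2 and the insulin receptor substrate IRS1 (11470 bp). Lipid metabolism, at 2 of 65 (3.08%, 0.848 to 10.5), was the list closest to the background, with the fatty acid receptor CD36 (3390 bp) and the lipase inhibitor ANGPTL4 (1880 bp).

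Of 34 hepatic transporters, 5 had an end peak (14.7%, 6.45 to 30.1), the highest share of the 10 lists. Besides ABCA6, the widest lay over the iron exporter SLC40A1 (12570 bp, with 12359 bp beyond the end), the citrate transporter SLC13A5 (5570 bp) and SLC17A2 (4460 bp). Of 47 hepatocyte transcription factors, 3 had an end peak, namely PROX1 (13150 bp), ARID5B (8830 bp) and FOXA3 (2570 bp). The peak of PROX1 at chr1:214037461-214050610 held 4050 bp of its last exon and 9100 bp beyond it. The intervals of the single lists are wide, and those of several lists include the 2.20% of all genes.

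The other gene groups ranged from no end peak to shares above that of all genes. No end peak was found among 415 olfactory receptor genes (upper limit of the interval 0.917%), 86 cytosolic ribosomal protein genes (4.28%), 53 clustered protocadherin genes (6.76%), 44 collagen genes (8.03%) or 40 housekeeping genes (8.76%). For all but the olfactory receptors, the upper limit lies above 2.20%, so the size of the lists did not allow a lower share to be seen. Of the olfactory receptor genes, 208 were no longer than 2500 bp and could not meet the rule, and the 169 of 5000 bp or more had 0 end peaks with an upper limit of 2.22%, close to the 2.33% of genes of that length outside the hepatocyte lists. Without the distance from a TSS, 1 of the 415 olfactory receptor ends (0.241%, 0.0425 to 1.35) lay in any TTD peak, against 3.05% of all ends. Of the 508 zinc finger genes named ZNF, 9 had an end peak (1.77%, 0.935 to 3.33), with the widest at ZNF350 (9680 bp), followed by ZNF189, ZNF396 (4430 bp) and ZNF331 (3940 bp). Of 379 solute carrier genes it was 8 (2.11%). The shares of these last 2 groups were near the 2.20% of all genes. Of 55 keratin genes it was 3 (5.45%, 1.87 to 14.9), KRT39, KRT23 and KRT10 (2110 bp). Among 39 genes for UHRF1, DNA methylation and H3K4 or H3K9 methylation, 2 had an end peak (5.13%, 1.42 to 16.9), both demethylases: KDM5A (3620 bp), which acts on H3K4, and KDM3A (3240 bp), which acts on H3K9.

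**Figure D5:**
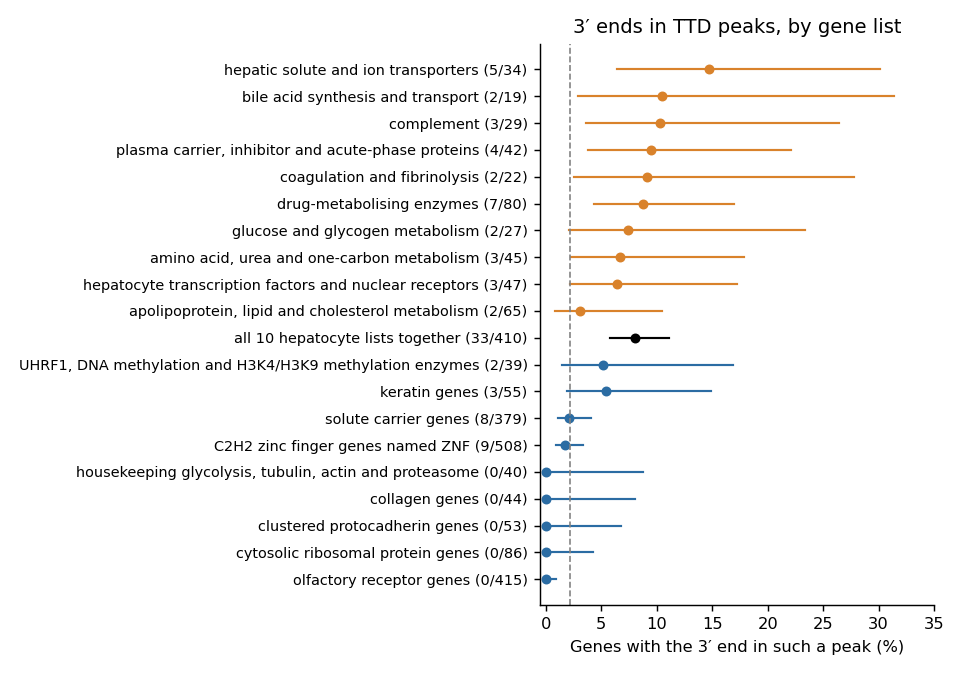
Percent of the genes of each list whose 3′ end lay in a TTD peak more than 2500 bp from every TSS, with 95% Wilson intervals and the count in brackets; orange, hepatocyte lists, black, these 10 together, and blue, other gene groups, with the share of all protein-coding genes (2.20%) as a dashed line. The 10 lists together lie at 8.05%, and the groups at 0 are those of olfactory receptor, ribosomal protein, protocadherin, collagen and housekeeping genes.

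The study selected genes by their expression in HepG2 cells and liver. Of 64 genes it lists as lower in HepG2, 8 had an end peak (12.5%, 6.47 to 22.8), against 2.20% of all genes, the widest at GSTA1, FGA, CYB5A (5890 bp), which encodes cytochrome b5, and GSTA2. Of 119 genes listed as higher in HepG2, 0 did, with an upper limit of 3.13% that includes the share of all genes. The genes of the second list were shorter, with a median of 6421 bp against 17079 bp, and 42 of them, unlike 11 of the first, were under 5000 bp. Among genes of 5000 bp or more, the counts were 7 of 53 (13.2%) in the first list and 0 of 77 in the second. Without the distance from a TSS, 12 of the 64 ends (18.8%) and 1 of the 119 (0.840%) lay in any TTD peak, against 3.05% of all ends. The lists also differed away from the ends, as 40 of the 64 genes (62.5%) and 13 of the 119 (10.9%) held a TTD peak anywhere in the gene.

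Of 7 genes that the study names as TTD targets or shows in browser views, FGA was the only gene with an end peak. The end of MBL2 lay in a peak of 27360 bp that extended to a TSS. The ends of the other 5 lay outside TTD peaks, at 1789 bp from the nearest peak for FOXA1, 1936 bp for HNF4A, 3229 bp for ALB, 6053 bp for ABCA9 and 18704 bp for AFP. Each of these 5 genes held at least 1 TTD peak elsewhere in the gene.

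The share of gene ends in end peaks varied between chromosomes. It was highest on chromosome 20 (4.76%, 3.27 to 6.89), chromosome 18 (4.14%, 2.32 to 7.25) and chromosome 2 (3.93%, 2.98 to 5.16), and lowest on chromosome 19 (0.610%, 0.321 to 1.15) among the autosomes. The TTD peaks as a whole covered 7.04% of chromosome 20, 2.25% of chromosome 18, 5.67% of chromosome 2 and 1.26% of chromosome 19. The share of ends was 1.84 times the cover on chromosome 18, with 11 ends, and 1.75 times on chromosome X, with 8. On chromosomes 11 and 14 it was 0.426 times the cover. Over all chromosomes this ratio was 0.726, since the ends are limited by the distance from a TSS and the cover is not.

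Near the limit of 2500 bp the rule separated alike peaks. The peaks just inside it lay over ATP5MC1 (2506 bp from a TSS), C1orf210 and TMEM125 (2555 bp), TERB1 (2612 bp), RASSF4 (2623 bp) and ZNF22 (2638 bp). Those just outside included peaks over DDB1 (2345 bp), BTN2A2 (2357 bp), R3HDML (2459 bp) and ASAP3 (2463 bp). Their widths, from 800 to 8780 bp inside and from 2070 to 5440 bp outside, overlapped.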

How the data were processed

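TTD CIDOP, H3K9me2 ChIP and input libraries of HepG2 cells were measured in 2 replicates each. Per the labels and the study's methods, the authors trimmed the reads with Trimmomatic 0.38, aligned them to hg38 with HISAT2 2.2.1 and made RPKM coverage with deepTools 3.3.2. Broad peaks were called with MACS2 2.1.1 on the mean of both TTD replicates, without a named input, then filtered for blacklisted regions and curated by hand. The deposited file holds positions and widths in bp. The study states only a minimum read number, and the file itself gives no depth. The library signals were not analysed here.

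All 31569 deposited widths equal end minus start. Gene ends and TSSs were those of GENCODE release 44 gene records, and interval arithmetic was done in Python 3.11.15 with numpy 2.4.6, pandas 2.3.3 and pysam 0.24.0. It was tested on 20 simulated chromosomes against counting of single bases, with equal results in 20. Intervals of shares are 95% Wilson intervals and those of medians come from binomial order statistics. No test was run, as there is 1 pooled list. The repeat content of peaks was not computed, because the sequence used carries no repeat mask.

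The end peaks, gene lists and rules were chosen with earlier results of these data known. The genes named are the 10 widest end peaks, the 5 widest with several ends, the 5 deepest ends, the 5 reaching farthest beyond the end, up to 4 genes per list by width, the 5 genes with most peaks, 5 peaks on each side of the distance limit and the targets named in the study. Other genes were named after their values were seen. Some genes and sequences that these rules choose are not reported here. Alternatives were other TSS distances and TSS sets, canonical and RefSeq ends, wide peaks only, ends at least 250 bp inside the peak, joined peaks, other gene lengths and other windows.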

Additional observations from a re-analysis of the deposited data

How the results depend on the processing

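Of 57 values recomputed under other settings, 51 moved by less than the 95% interval of the reported value, or by less than 1.5 times for the count of peaks. The count of 425 end peaks ranged from 296, at more than 10000 bp from every TSS, to 525, at more than 0 bp, and was 337 with the TSSs of all protein-coding transcripts. The share of gene ends in any TTD peak (3.05%) was 2.18% with peaks at or above the median width and 2.58% with ends at least 250 bp inside, both of which remove ends by construction. The cover of the 500 bp around the end (3.09%) was 2.21% with the wider peaks. The share of end-peak genes with a TTD peak at the TSS (30.2%) was 20.5% with a window of 1000 bp and 41.1% with 5000 bp. It must rise with the window. The genes without a peak at the end are not given for these windows, and their 17.5% belongs to 2500 bp. The share of hepatocyte-list genes (8.05%) was 5.37% at more than 10000 bp from every TSS. The share of all genes is not given at that distance, and the 2.20% above belongs to 2500 bp. The values therefore do not show how the 2 shares compare at 10000 bp. RefSeq ends and the records left out as read-through or unnamed were added after seeing the data. Leaving out a replicate could not be run. No paired analysis was possible because both replicates are pooled in 1 peak list. Without depth or signal, an end outside a peak cannot be told apart from binding below the cutoffs.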
